A study of Caenorhabditis elegans with 2 samples.

Results

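The genes described here are pcca-1, pccb-1, mce-1, mmcm-1, mmaa-1 and mmab-1, which encode the vitamin B12-dependent route of propionate breakdown in Caenorhabditis elegans. They were taken by name from the Ensembl annotation of WBcel235, and all 6 were found among 19985 protein-coding genes. For each gene, every peak summit was collected from 5 kb upstream of its annotated 5′ end to the end of the gene. The question was where, and how strongly, the nuclear hormone receptor NHR-102 was detected around these genes.

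Propionyl-CoA arises from the breakdown of branched-chain amino acids and of fatty acids with an odd number of carbons. The biotin enzyme propionyl-CoA carboxylase, made of the subunits PCCA-1 and PCCB-1, adds a carboxyl group to it. The epimerase MCE-1 turns the product into its mirror form, and the mutase MMCM-1 converts that to succinyl-CoA, which enters the citric acid cycle. The mutase needs adenosylcobalamin, a form of vitamin B12. MMAB-1 is the homologue of the human adenosyltransferase that makes this cofactor, and MMAA-1 of the human protein that helps to load it onto the mutase. When vitamin B12 is scarce, worms use a shunt without this vitamin, whose genes are turned on through the receptors NHR-10 and NHR-68.

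Chromatin immunoprecipitation and sequencing (ChIP-seq) was carried out on whole hermaphrodite L4 larvae of strain OP463, with genotype unc-119(tm4063) III; wgIs463, 50 h after synchronization from starved L1 larvae. The strain stably expresses NHR-102 with a C-terminal GFP-FLAG tag, and the antibody was directed against GFP by the sample descriptions, whereas the antibody label names nhr-102. Both samples belong to this 1 group and are its 2 biological replicates; no strain without the tag and no other condition was analysed here, so signal from NHR-102 and signal from other sources at a peak cannot be told apart. Whole animals were used, so signal from different tissues cannot be told apart either.

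The series held a list of 30000 peaks for each replicate, a list of 30000 peaks from both replicates pooled, and an optimal list of 2796 reproducible peaks. The lists of 30000 contain peaks together with background regions, as their deposited name says. The optimal peaks were exactly the 2796 strongest of the pooled list, with the same summits and signals, and their signal ran from 90.5 to 4514 with a median of 143. Signal is the authors' own value for a peak, without a fixed unit, and it is compared here only within 1 list; ranks count from 1 for the strongest peak. Read numbers are not in these lists, and the sequencing depth is therefore unknown. With 2 samples of 1 group no test between conditions was possible, and the values of both replicates are given in place of a test.

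Of the 6 genes, 2 had an optimal summit in the window from 5 kb upstream to the gene end, namely pccb-1 and mce-1, while 18.7% of all protein-coding genes had one. Only 1 of the 6, pccb-1, had an optimal summit in its promoter, taken as the stretch between 1000 bp before and 200 bp after the 5′ end of any annotated coding transcript; over all protein-coding genes this share was 8.95%. With 6 genes, counts of 2 and 1 are too few to be set apart from these shares. Both peaks were in the weaker part of the optimal list, in which the pccb-1 peak ranked 1687 and the mce-1 peak 2683. The windows of the 6 genes were of ordinary length, with a median of 7.28 kb against 7.03 kb over all genes.

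In the pooled list, all 6 had at least 1 pooled summit in the window, against 54.0% of protein-coding genes, and all 6 had one in the promoter, against 34.3%. The same held for each replicate's own list: 6 of 6 genes had a promoter summit in replicate 1, where the share over all genes was 36.4%, and 6 of 6 in replicate 2, where it was 35.7%. In all, 39 pooled summits lay in 45.3 kb of windows, or 0.861 per kb, against 0.299 per kb over the genome. The genome value also covers sequence outside such windows, and the density over the windows of all genes was not computed. These densities therefore cannot show whether the 6 genes differ from other genes. Of the 39, 21 were below the median signal of the pooled list (30.8), a share near the one that a median sets for all peaks. Among the 6000 strongest of the 30000 pooled peaks, a number chosen after the values were seen, were 11 of the 39. For 21 of the 39 the nearest annotated 5′ end belonged to another gene.

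**Figure D1:**
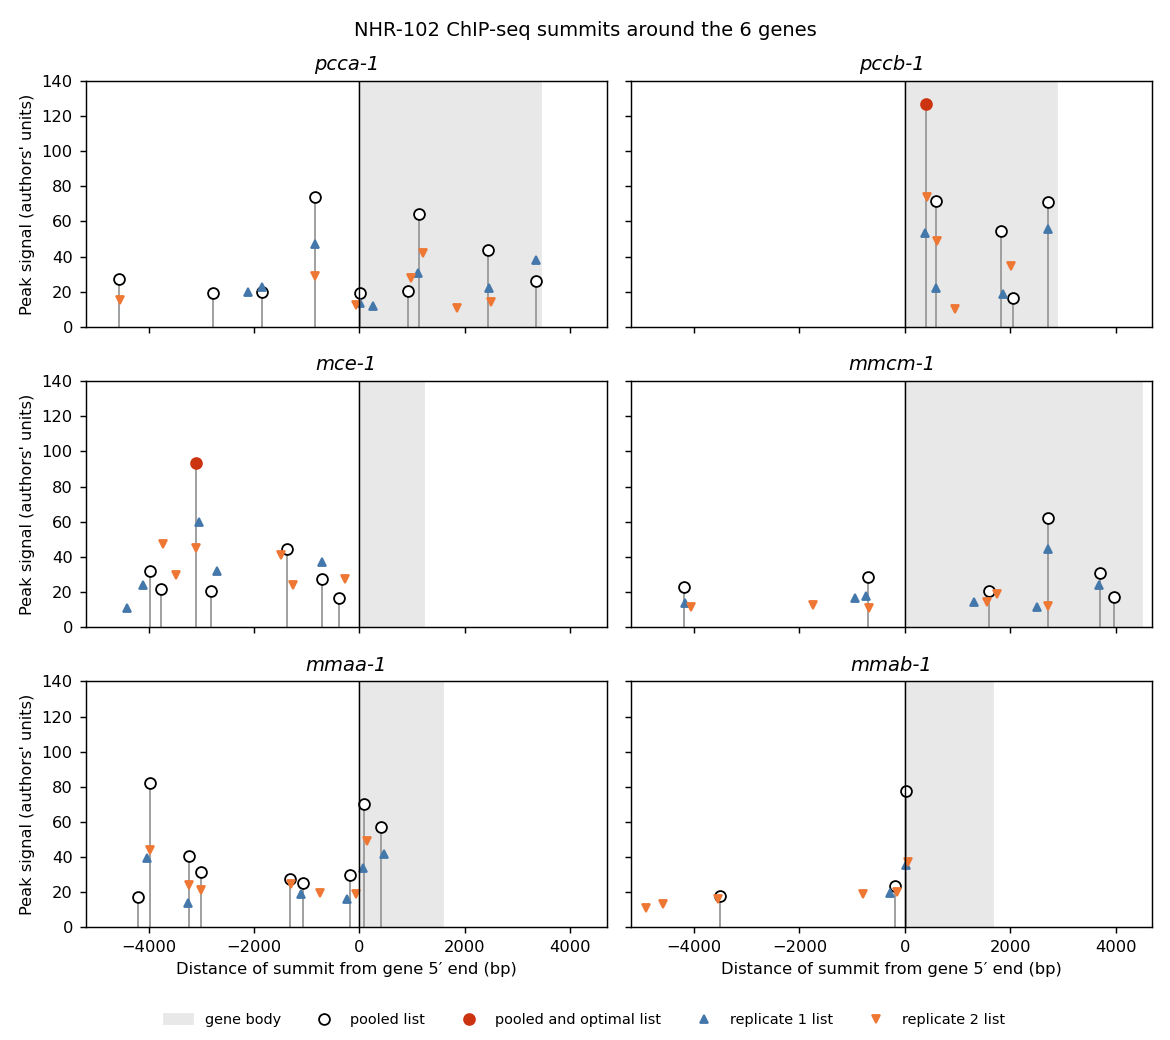
Peak summits around the 6 genes, by distance from the annotated 5′ end of the gene in bp (x axis; grey marks the gene body) and peak signal in the authors' units (y axis). Circles are pooled peaks, filled red where they are also in the optimal list, and triangles are peaks of the replicate lists; signals of different lists are not on a common scale. The 2 red points are the pccb-1 peak at 397 bp (signal 127) and the mce-1 peak at -3095 bp (signal 93.3).

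Some of the 11 pooled promoter summits held no match to the motifs searched, such as that of mmab-1 at -190 bp. The sequences around 4 others, each with a match, are shown. They are the pair of summits between the alternative starts of pccb-1, the upstream summit of its partner pcca-1, and the only promoter summit of the mutase gene mmcm-1 in the pooled list, with a signal of 28.5. Each line gives 101 bases centred on the summit, 5′ to 3′ on the strand of the gene, from the RefSeq genome of WBcel235, and capitals mark a match to one of the 9 short motifs described further on.
pccb-1, summit at 397 bp, chrX:3089896-3089996, plus strand: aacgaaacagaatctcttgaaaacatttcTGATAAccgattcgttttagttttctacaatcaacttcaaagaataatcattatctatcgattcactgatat
pccb-1, summit at 597 bp, chrX:3090096-3090196, plus strand: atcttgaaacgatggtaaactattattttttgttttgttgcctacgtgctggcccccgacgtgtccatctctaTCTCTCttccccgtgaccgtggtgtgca
pcca-1, summit at -853 bp, chrX:7661789-7661889, minus strand: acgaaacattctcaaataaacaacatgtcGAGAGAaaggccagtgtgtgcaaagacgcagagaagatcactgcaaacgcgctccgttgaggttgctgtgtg
mmcm-1, summit at -692 bp, chrIII:3908329-3908429, minus strand: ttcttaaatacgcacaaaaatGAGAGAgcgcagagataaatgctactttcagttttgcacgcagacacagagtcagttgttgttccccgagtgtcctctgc

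In the pooled list and in replicate 2, the strongest peak of the 6 genes stood at pccb-1, the gene of the beta subunit of propionyl-CoA carboxylase (WBGene00018701, sequence name F52E4.1; X, 3089549 to 3092437, plus strand). The peak spanned 3089724 to 3090167, with a pooled signal of 127. Its signal was 53.3 at rank 2687 of 30000 in replicate 1 and 73.8 at rank 1416 in replicate 2. In replicate 1 the mce-1 peak at -3047 bp (59.9) and a peak at the 3′ end of pccb-1 (55.6) were stronger. It was thus among the 2796 strongest peaks of both replicates, the only peak of the 6 genes for which this was so. The summit lay in the first intron of transcript F52E4.1b.1, an intron of 989 bp. It was 397 bp downstream of the 5′ end of that transcript and at -481 bp from the 5′ end of F52E4.1a.1. Relative to the first start it would fall outside the promoter window, and it counted as a promoter summit through the second.

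A second pccb-1 summit in the same intron, at 597 bp from the first start and -281 bp from the second, had a pooled signal of 71.6 at rank 3981. In replicate 2 a peak with its summit within 100 bp of it ranked 2843 (signal 48.6), and in replicate 1 such a peak ranked 11740 (signal 22.4). The 5 pooled summits of pccb-1 all lay inside the gene, and none in the 5 kb upstream of it. At the other end of the gene, a summit at 2720 bp in the 3′ UTR had a pooled signal of 70.9. This last peak ranked 2499 in replicate 1, above the intron peak of that list, whereas no peak of replicate 2 covered it. The neighbour wrt-2, on the opposite strand, has its annotated 3′ end within that of pccb-1, at a gap of -42 bp. The summit in a coding exon at 1834 bp ranked 15353 in replicate 1 and 5125 in replicate 2.

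By the ranks in both replicates, the promoter peaks most like that of pccb-1 were those of H35N09.1 (ranks 2669 and 1392), F28H6.7 (2640 and 1402), both on X, and ncs-5 on V (2654 and 1483). Likeness was the distance of log2 ranks over the 2 replicates, which was 0.0265, 0.0292 and 0.0690 for these genes, among 1499 other optimal promoter peaks found in both replicate lists. These genes are named for similar ranks alone.

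The alpha subunit gene pcca-1 (WBGene00017864, F27D9.5; X, 7657542 to 7660986, minus strand), which encodes the biotin-carrying partner of PCCB-1, had 9 pooled summits but no optimal one in the window. The strongest was intergenic, -853 bp from the 5′ end and between pcca-1 and the 3′ end of dhs-29. It had a pooled signal of 74.1 at rank 3759. Its signal was 47.0 at rank 3365 in replicate 1 and 29.2 at rank 7029 in replicate 2. At the annotated start itself the signal was low, with a summit at 10 bp ranking 25096 in the pooled list, 23065 in replicate 1 and 24565 in replicate 2. An intron summit at 1128 bp ranked 4759 in the pooled list, and here replicate 2 had the better rank (3631, against 6856 in replicate 1).

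An optimal peak lay just past the end of pcca-1 and so outside the window. Its summit (X, 7657202 to 7657645; signal 96.8, rank 2527) stood 118 bp beyond the annotated 3′ end, in intergenic sequence, and the nearest annotated 5′ end was that of F27D9.12, from which it was at -449 bp. It ranked 2264 in replicate 1 and 3844 in replicate 2. A similar case was found at mmaa-1, where an optimal summit (II, 7098989 to 7099432; signal 96.9, rank 2522) stood 372 bp past the gene end in a coding exon of T02G5.3 and at -618 bp from the start of mct-5. Its ranks were 3520 and 1263. Both peaks were looked for within 500 bp of the windows after the values were seen. The share of all genes with such a peak was not computed, so these cases cannot be compared with other genes.

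The epimerase gene mce-1 (WBGene00008415, D2030.5; chromosome I, 7582106 to 7583333, plus strand) owed its optimal peak to the width of the window. The summit lay -3095 bp from its 5′ end, in an intron of D2030.3 (peak 7578928 to 7579083). The nearest annotated 5′ end was that of D2030.3, a gene on the opposite strand. With a signal of 93.3 it stood close to the lower end of the optimal list. Its signal was 59.9 at rank 2189 in replicate 1 and 45.3 at rank 3220 in replicate 2. In replicate 2 another peak of the window was stronger, at -3724 bp in the 3′ UTR of D2030.2 (signal 47.5, rank 2959). A further pooled summit stood at -1367 bp, 94 bp inside D2030.3, and was covered by a peak in replicate 2 (rank 3809) but by none in replicate 1.

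Near the mce-1 start the replicates differed. The promoter held pooled summits at -707 bp (signal 27.3, rank 17583) and at -396 bp (signal 16.4, rank 28880). The first was covered by a peak of replicate 1 alone (signal 37.2, rank 4939) and the second by one of replicate 2 alone (signal 27.3, rank 7872, summit at -282 bp). The promoter window is shared with ndub-7 and D2030.3, which are transcribed in the opposite direction. The summit at -707 bp fell in a coding exon of ndub-7, a subunit gene of respiratory complex I, and that at -396 bp at -82 bp from the ndub-7 start. No pooled summit lay inside mce-1 itself.

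The mutase gene mmcm-1 (WBGene00014202, ZK1058.1; III, 3903185 to 3907687, minus strand) had the lowest promoter signal of the 6 genes in each replicate. Its only pooled promoter summit, at -692 bp in intergenic sequence, had a pooled signal of 28.5 at rank 16664. It ranked 16465 in replicate 1 and 28212 in replicate 2. The strongest mmcm-1 peak of the pooled list lay in a coding exon at 2711 bp, with a pooled signal of 62.0 at rank 5043. The replicates differed there more than at any other summit of the 6 genes found in both. This exon peak ranked 3697 in replicate 1 (signal 44.5) and 25494 in replicate 2, a ratio of ranks of 6.90. Over all pooled peaks found in both replicates the median ratio was 1.61.

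In the pooled list, the cofactor genes had their promoter summits near the annotated starts. In replicate 2 each also had one farther upstream, at -786 bp for mmab-1 and at -758 bp for mmaa-1. At mmab-1 (WBGene00016144, C26E6.11; III, 4920442 to 4922114, minus strand), the adenosyltransferase gene, a summit at 21 bp in the annotated 5′ UTR had a pooled signal of 77.7 at rank 3503. The replicates were close, with a signal of 35.3 at rank 5396 in replicate 1 and 36.9 at rank 4613 in replicate 2. This gene had 3 pooled summits, fewer than any of the other 5, but in replicate 2 it had 6, more than pccb-1 with 4. The set-2 gene ends 313 bp upstream of mmab-1 on the same strand.

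At mmaa-1 (WBGene00020169, T02G5.13; II, 7099583 to 7101165, minus strand), the gene of the protein that assists the mutase, a summit at 90 bp had a pooled signal of 70.3 at rank 4106. It lay at -5 bp from a later annotated start, that of T02G5.13b.2. Its signal was 33.9 at rank 5769 in replicate 1 and 49.1 at rank 2785 in replicate 2, the latter just within the 2796 strongest. The farl-11 gene ends 53 bp upstream on the same strand. A second promoter summit, at -176 bp in the farl-11 3′ UTR, ranked 15809 in the pooled list. In the pooled list the strongest mmaa-1 summit was at -3980 bp (signal 82.1, rank 3225). It lay between the starts of farl-11 and rpl-33 and in the promoter windows of both, and ranked 4497 and 3348 in the replicates. In each replicate a peak inside mmaa-1 was stronger, at 464 bp (rank 4117) in replicate 1 and at 147 bp (rank 2785) in replicate 2. Here rpl-33 encodes a protein of the large ribosomal subunit.

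Set in order by the highest promoter signal in the pooled list, the genes ran pccb-1 (127), mmab-1 (77.7), pcca-1 (74.1), mmaa-1 (70.3), mmcm-1 (28.5) and mce-1 (27.3). Their signals exceeded those of 94.3%, 89.5%, 89.0%, 88.3%, 73.5% and 72.7% of protein-coding genes in the same order, counting genes with no promoter summit as 0. The median of the 6 was 72.2, against 48.8 over the 6849 genes with a pooled promoter summit. In both replicates pccb-1 stood highest and mmcm-1 lowest. The genes between them changed places: in replicate 1 the order was pcca-1 (47.0), mce-1 (37.2), mmab-1 (35.3) and mmaa-1 (33.9), and in replicate 2 it was mmaa-1 (49.1), mmab-1 (36.9), pcca-1 (29.2) and mce-1 (27.3). The order of these 4 genes therefore did not hold between the replicates.

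**Figure D2:**
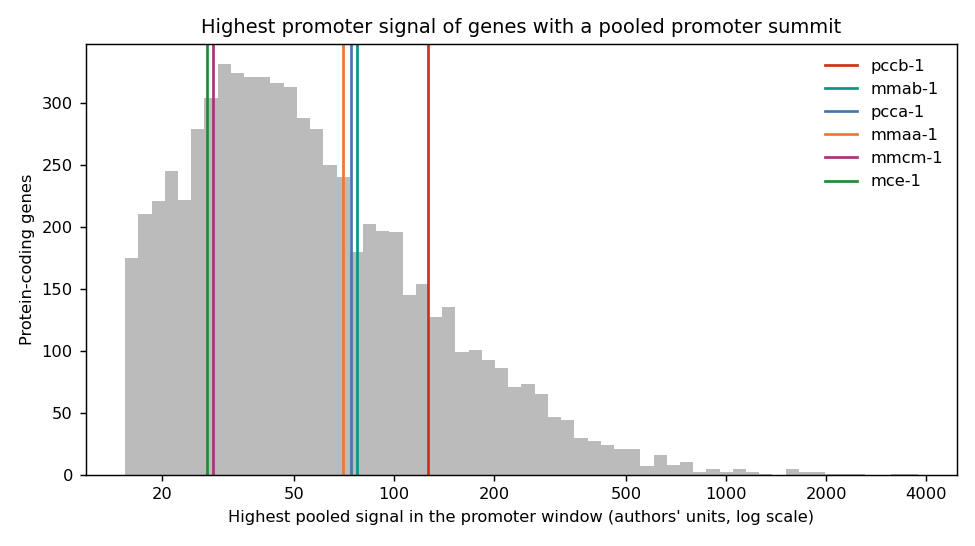
Highest pooled signal in the promoter window (x axis, authors' units on a log scale) of the 6849 protein-coding genes with a pooled promoter summit (y axis, number of genes; grey bars). Coloured lines mark the 6 genes: pccb-1 stands at 127, mmab-1, pcca-1 and mmaa-1 between 70.3 and 77.7, and mmcm-1 and mce-1 at 28.5 and 27.3.

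Over the 39 pooled summits, 22 (56.4%) were covered by a peak in both replicate lists, 15 in 1 of them and 2 in neither. The share over all 30000 pooled peaks was 55.6%, and over the optimal peaks 97.9%. The median ratio of ranks was 1.73 for the 22 summits, 1.61 for all pooled peaks and 1.43 for the optimal peaks. The summits around the 6 genes were thus covered by replicate peaks at a rate close to that of the pooled list as a whole. This rate is not an independent check, since the pooled list was made from these same replicates. A single replicate peak can also cover more than 1 pooled summit.

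**Figure D3:**
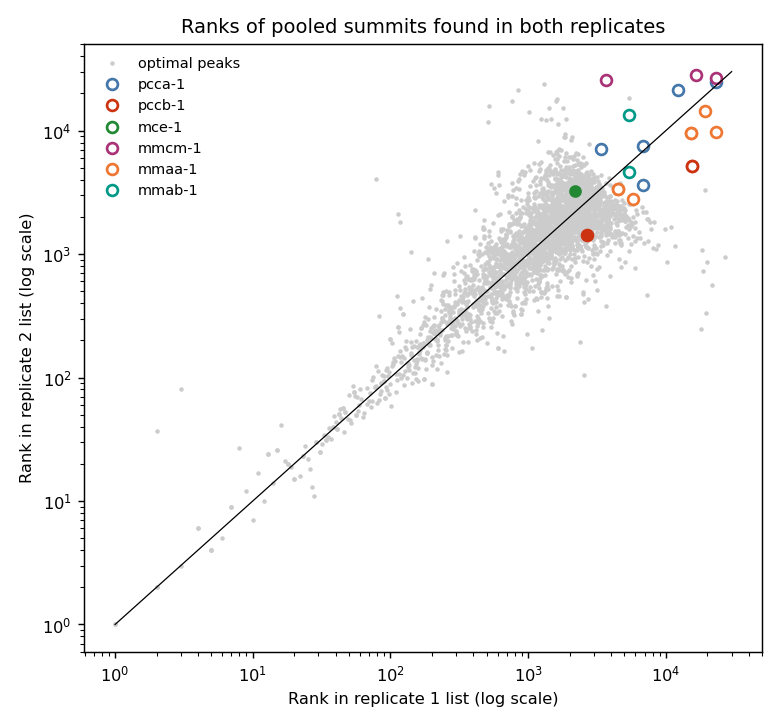
Rank in the replicate 1 list (x axis) against rank in the replicate 2 list (y axis), both on log scales with 1 as the strongest, for optimal peaks (grey) and for the 22 pooled summits of the 6 genes covered in both lists (coloured; filled where optimal). Points can share a replicate peak and then lie on top of each other. The optimal peaks of pccb-1 (2687 and 1416) and mce-1 (2189 and 3220) lie on either side of the line of equal ranks, and the mmcm-1 exon summit (3697 and 25494) lies well above it.

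Short motifs within 50 bp of a summit were counted on both strands. The core motif AGGTCA, bound by many nuclear receptors, was near 1 of the 39 pooled summits, that of pcca-1 at -4565 bp. It was near 2.97% of optimal and 2.52% of pooled summits in windows of the same size, and in 8.25% of promoter stretches of 300 bp. The variant AGTTCA was near 1 of the 39 (4.79% of optimal, 5.63% of pooled summits and 19.2% of promoter stretches), and AAGTCCA, a motif of the HNF4 type, near 1 (0.823%, 0.830% and 2.09%). None of these 3 motifs lay within 50 bp of the pccb-1 summits printed above, but AGGTCA occurred 67 bp from the optimal pccb-1 summit on the opposite strand.

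The GATA factor motif TGATAA lay near 4 of the 39 summits, among them the optimal peak of pccb-1, at -18 bp from the summit on the strand of the gene. It was near 16.9% of optimal and 11.4% of pooled summits and in 29.5% of promoter stretches. The repeat GAGAGA lay near 8 of the 39, including the pcca-1 summit at -853 bp, the second pccb-1 summit and the mmcm-1 promoter summit, and near 18.7% of optimal and 8.76% of pooled summits and in 22.3% of promoter stretches. The forkhead motif TGTTTAC was near 1 of the 39 (1.86%, 1.25% and 4.55%), and the E-box CACGTG near 0 (6.83%, 2.87% and 5.84%). The motifs GCGCAGGG and CGCGCAGG resemble the sites of the X dosage compensation machinery and overlap in sequence. They were searched because pcca-1 and pccb-1 lie on X. Neither was near any of the 39 summits. The motifs were near 0.644% and 0.715% of optimal summits, 0.0733% and 0.107% of pooled summits and in 0.102% and 0.123% of promoter stretches. With motifs this rare near pooled summits, their absence from 39 summits is no departure from these shares.

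The base composition at the summits was mixed. In the 101 bases around it, the optimal pccb-1 summit had a GC content of 28.7%, below the range of 37.6 to 50.5% between the lower and upper quartiles of 2773 nuclear optimal peaks. The other summits given here were not optimal, and over 29976 nuclear pooled peaks the quartiles were 30.7 and 45.5%. The second pccb-1 summit and the pcca-1 summit at -853 bp both had 47.5%. The mmaa-1 summit at 90 bp had 32.7% and the mmab-1 summit at 21 bp had 54.5%.

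The genes around this route were taken from 6 lists, which were chosen with earlier results of these data known. Each count below is to be read beside the 8.95% of all protein-coding genes with an optimal promoter summit. The shunt that breaks down propionate without vitamin B12 had an optimal promoter summit in 5 of 5 genes, hach-1 (signal 187), acdh-1 (173), hphd-1 (139), ech-6 (134) and alh-8 (105), the last named after its values were seen. These encode the acyl-CoA dehydrogenase of its first step (acdh-1) and the enzymes that follow. The hach-1 summit lay in the promoter window of nmad-1 as well. In replicate 1 the 5 shunt genes stood between 54.0 and 63.1, above all 6 vitamin B12-dependent genes, of which pccb-1 was the highest at 53.3. In replicate 2 pccb-1 (73.8) stood above ech-6 (71.7) and alh-8 (63.9) and below the other 3, and the remaining 5 members stood below all shunt genes. In the list of receptor genes, nhr-68 (648) and nhr-114 (121) had an optimal promoter summit, while nhr-10 stood at 24.6 in the pooled list. NHR-114 is not one of the receptors named above as turning on the shunt genes. The nhr-68 summit lay in the promoter window of H12C20.7 as well.

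Of the 7 genes that handle cobalamin or use it to make methionine, 3 had an optimal promoter summit: mrp-5, an ABC transporter gene (signal 199), pmp-5, another ABC transporter gene (143), and mmad-1, the homologue of a human gene for cobalamin trafficking (133). The methionine synthase gene metr-1 (61.2 in the pooled list) and its reductase gene mtrr-1 (60.6) had no optimal promoter peak and stood between mmaa-1 (70.3) and mmcm-1 (28.5). Branched-chain amino acid breakdown, a source of propionyl-CoA, had 2 of 8, dld-1 (270) and dbt-1 (265), which encode subunits of the branched-chain ketoacid dehydrogenase; dld-1 also serves other complexes.

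The genes of the citric acid cycle steps that make succinyl-CoA, use it or oxidise the succinate formed from it had 3 of 9, sdha-1 of succinate dehydrogenase (201), sucl-1 of succinyl-CoA ligase (195), and dlst-1 of 2-oxoglutarate dehydrogenase (140). The other biotin carboxylases and the biotin ligase bpl-1 had 0 of 5, and mccc-1 and mccc-2, which encode both subunits of methylcrotonyl-CoA carboxylase, had no promoter summit in any of the lists. Over the 6 lists together 15 of 37 genes had an optimal promoter summit and 33 of 37 a pooled one, to be read beside the shares of 8.95% and 34.3% given above, and the median of the highest promoter signal was 79.8.

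**Figure D4:**
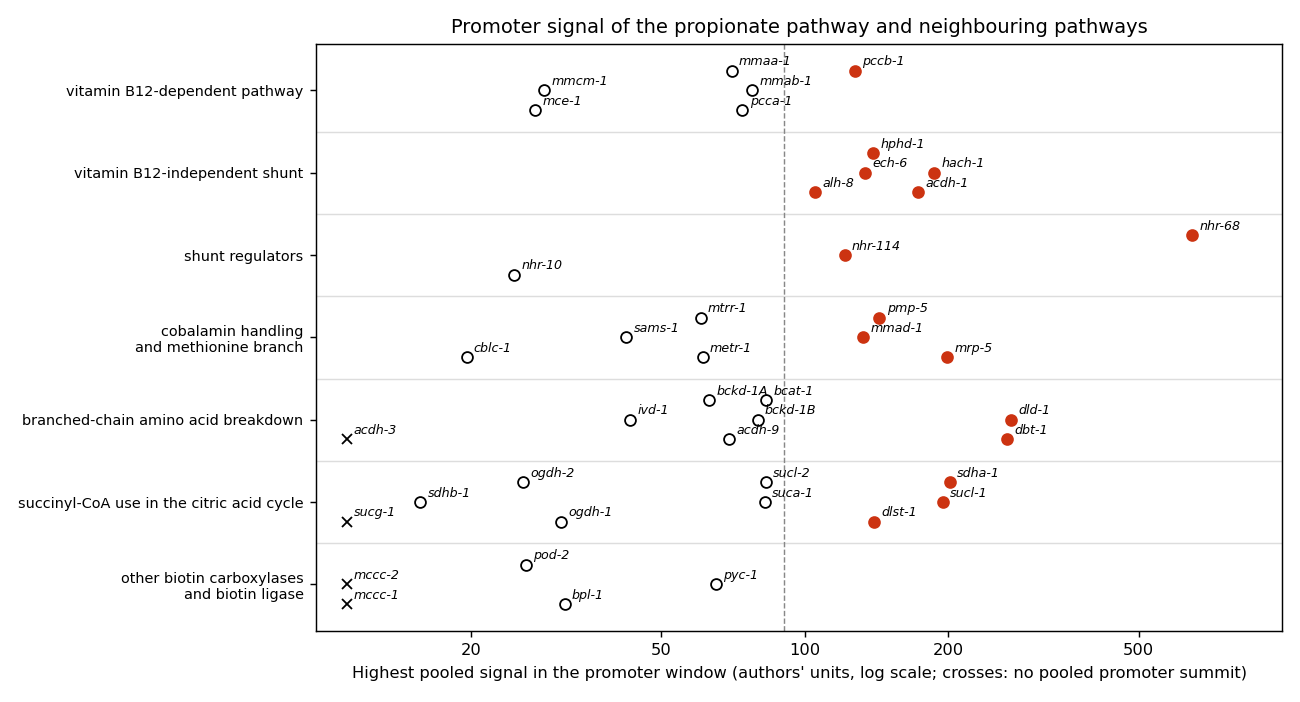
Highest pooled promoter signal (x axis, authors' units on a log scale) of the 6 genes of the vitamin B12-dependent pathway and of the genes in 6 related lists (y axis; the height within a row has no meaning). Red points have an optimal promoter summit, the dashed line is the lowest signal of the optimal list (90.5), and crosses are genes with no pooled promoter summit. All 5 shunt genes are red, from 105 to 187, and only pccb-1 is red among the 6 (127).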

How the data were processed

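Peak lists of 2 ChIP-seq samples in build ce11 were used; each gives the interval, summit, signal and -log10 q of a peak. Per the deposited notes with each sample, replicate lists were made from each replicate's alignments with a control, a pooled list from both, and an optimal list from these 3 lists by the irreproducible discovery rate. The sources used here do not name the caller, its version or the threshold. Signal was used as deposited by the authors. The deposited −log10 q had the same value throughout the optimal list and was not used.

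Summits were placed on the Ensembl release 115 annotation of WBcel235, which is the sequence of ce11; all peaks ended within its chromosomes. Positions count from 1. A replicate peak matched when it covered a summit, the strongest first. The interval search was checked with simulated summits. No p-value was computed, since there was 1 group, and the members and lists were chosen with earlier results of these data known. The genes named were the 6 members, the genes nearest to their summits or sharing them, up to 4 genes per list by optimal promoter signal, and the 3 most like each member with an optimal promoter peak. The alternatives changed the list, a replicate, the windows and the assignment. Calculations used Python 3.11.15, pandas 2.3.3 and numpy 2.4.6. Lists in ce10 were not used.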

Additional observations from a re-analysis of the deposited data

How the results depend on the processing

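The number of the 6 genes with an optimal summit in the window (2, beside 18.7% of all genes) was 0 among the 1398 strongest optimal peaks (11.1% of all genes), 1 with 2 kb upstream (13.1%) and 1 with 1 kb upstream (11%), so that the share over all genes fell as well. It was 1 with each summit given only to the nearest 5′ end, for which the share over all genes was not computed. With any base of the peak in the window it was 3 (19.9%), as pcca-1 was added. The number with a promoter summit (1, beside 8.95%) was 0 among the 1398 strongest peaks (4.86%). With so few genes, these falls say nothing particular about the 6. Using the 2796 strongest peaks of 1 replicate, the window count was 2 without either replicate, but mmaa-1 took the place of mce-1 without replicate 1; the promoter count was 2 without replicate 1 (8.40%), as mmaa-1 was added, and 1 without replicate 2 (8.65%). Promoters of 500 bp upstream to 100 bp downstream (6.7% of all genes) or of 2000 bp upstream (11.3%) left it at 1. Among the 1398 strongest peaks the shunt list had 2 genes in place of 5 and the list of receptor genes 1 in place of 2. The other 4 lists stayed within 1.5 times of their counts there, and all 6 did so without either replicate. Within 100 bp of the summits, TGATAA was near 10 of the 39 (27.9% of optimal and 20.4% of pooled summits), AGTTCA near 7 (9.69% and 11.4%), CACGTG near 4 (10.2% and 5.28%), AGGTCA near 4 (5.65% and 5.02%) and TGTTTAC near 2 (3.90% and 2.56%). GAGAGA stayed near 8 of the 39, while its shares over all peaks rose to 30.65% of optimal and 15.9% of pooled summits. No paired analysis was possible because there was 1 group. The unknown depth limits what the low pooled peaks can show. The cause of these changes was not tested.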
